A study of Mus musculus with 47 samples.

Results

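The 34 genes described here encode the enzymes and transporters that carry glucose to lactate, the transcription factor subunit HIF-1α and genes known as its targets. They were taken by gene symbol from a list of names, with no measured value in the rule, although the list was chosen with earlier results of these data known. All 34 were present among the 51912 genes of the bone-marrow-derived macrophage (BMDM) tables. In the tables of Raw264.7 cells, a mouse macrophage cell line, 32 to 34 of them were listed.

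Glycolysis splits glucose into pyruvate, and lactate dehydrogenase turns pyruvate into lactate, which leaves the cell through monocarboxylate transporters. HIF-1α is held low in oxygen by prolyl hydroxylases, encoded by Egln genes, and when stabilized it activates transcription of most glycolytic genes, of Vegfa and of the mitophagy gene Bnip3. In macrophages, LPS is known to induce glycolysis and HIF-1α, whereas IL-4-treated macrophages are known for relying more on mitochondrial respiration.

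The study asked how the chromatin reader ZMYND8 acts on inflammatory gene expression in macrophages, and 12 of its 47 samples were RNA-seq libraries, 6 of BMDMs and 6 of Raw264.7 cells. The BMDMs came from C57BL/6 mice whose floxed Zmynd8 alleles were intact (WT) or deleted by Cre made from the Lyz2 locus, which is active in myeloid cells (Zmynd8 cKO). For each genotype there was 1 library of untreated cells (M0, here NT), 1 of cells given LPS (M1, 100 ng/mL) and 1 of cells given IL-4 (M2, 20 ng/mL), with 6 h of treatment, and all were grown in M-CSF. Each BMDM library mixed 3 biological replicates, so no spread between replicates is left in the data and every test below compares 2 libraries, not the conditions. The Raw264.7 libraries were labelled Zmynd8 KO, Zmynd8 KO with wild-type Zmynd8 put back (WT Zmynd8), Zmynd8 KO with the D/E-A mutant, in which acidic residues of a disordered region are alanine, and, all under LPS, p65 KO, p65 KO with wild-type p65 put back (WT p65) and p65 KO with the p65 acetylation-site mutant K122R. The labels gave no age for the mice and no treatment for the first 3 Raw264.7 lines, although the study describes sequencing WT Zmynd8 and D/E-A cells under LPS, and the table column used for WT p65 did not itself name the p65 KO background.

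The 6 BMDM libraries held 22597408 to 28386612 estimated counts. Zmynd8 counts over the whole gene were 2284 in WT and 1842 in cKO NT cells, 1967 and 2033 with LPS, and 3636 and 3944 with IL-4, and these do not separate the deleted exons from the rest, so they check nothing about the deletion. All 9 macrophage markers were detected in every BMDM library, at a sum of 9950 to 19154 CPM (counts scaled to the library total), lymphocyte and fibroblast markers summed to at most 2.01 CPM, and dendritic cell markers to 0.797 to 6.35 CPM in the NT and IL-4 libraries and 15.8 and 21.0 CPM in the WT and cKO LPS libraries. The summed neutrophil markers were 2.37 to 4.22 CPM in the NT and LPS libraries but 383 in the WT and 515 in the cKO IL-4 library, with S100a9, Ngp and Ltf holding the most counts, which were not divided by gene length. The titles of the IL-4 libraries carried sample numbers apart from the run of those of the NT and LPS libraries, and the labels do not say what the numbers mark. The interferon-response genes summed to 2717 CPM in WT and 511 CPM in cKO NT cells, so the WT and cKO untreated libraries, to which each treatment was compared, differed in them.

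Promoters of the members were searched for the core of the HIF binding motif, ACGTG or GCGTG, on both strands (CACGT and CACGC on the strand printed), with overlapping matches merged into 1 stretch. The windows ran from 250 bases before to 50 bases after a gene start (RefSeq, GRCm38.p6), and 33 of the 34 members had at least 1, Ndrg1 none. Genes with several listed starts had several windows, and the window with the most stretches is the one printed. For Ldha and Hk1 that window lay inside the gene, whose span was chr7:46841475-46855627 for Ldha and chr10:62268855-62379908 for Hk1. Of these 33 genes, 30 (90.9%) held at least 1 stretch in any of their windows and 24 (72.7%) held at least 2, and over all 27025 genes the shares were 46.7% and 19.1%. Genes with several windows have more places for a match. Counted by window, the shares were 80.9% and 59.6% of the members' 47 windows and 43.8% and 17.2% of all 32851. The windows of the members had a median of 62% G or C against 52.7% over all windows, and the part of base composition in these shares was not tested. The following 5 promoters, 300 bases each and printed 5′ to 3′ on the strand of the gene, had the most stretches, 5 in Ldha and 4 in the others, and are shown as the windows densest in the motif. Bnip3 also had 4 and is not printed, since ties were taken in the order of the gene list. Matches to the motif core are in capitals, and a match says nothing about whether the factor binds.
Ldha (chr7:46845554-46845853, plus strand): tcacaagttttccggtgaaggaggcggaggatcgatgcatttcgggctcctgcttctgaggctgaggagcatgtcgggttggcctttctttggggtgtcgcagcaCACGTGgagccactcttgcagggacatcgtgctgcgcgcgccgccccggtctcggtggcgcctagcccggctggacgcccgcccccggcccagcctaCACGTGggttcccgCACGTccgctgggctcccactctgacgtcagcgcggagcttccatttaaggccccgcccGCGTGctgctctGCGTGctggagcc
Hk1 (chr10:62340372-62340671, minus strand): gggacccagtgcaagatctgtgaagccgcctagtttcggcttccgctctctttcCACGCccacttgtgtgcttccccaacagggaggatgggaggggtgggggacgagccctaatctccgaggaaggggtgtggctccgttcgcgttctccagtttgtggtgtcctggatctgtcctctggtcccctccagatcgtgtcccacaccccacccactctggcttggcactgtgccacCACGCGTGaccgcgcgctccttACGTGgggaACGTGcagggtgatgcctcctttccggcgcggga
Pfkp (chr13:6648722-6649021, minus strand): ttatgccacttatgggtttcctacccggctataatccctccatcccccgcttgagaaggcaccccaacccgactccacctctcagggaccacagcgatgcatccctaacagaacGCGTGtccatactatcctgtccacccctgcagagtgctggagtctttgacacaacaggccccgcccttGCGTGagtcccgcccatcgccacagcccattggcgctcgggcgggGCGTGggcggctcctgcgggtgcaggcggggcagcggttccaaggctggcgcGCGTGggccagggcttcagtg
Slc16a1 (chr3:104638414-104638713, plus strand): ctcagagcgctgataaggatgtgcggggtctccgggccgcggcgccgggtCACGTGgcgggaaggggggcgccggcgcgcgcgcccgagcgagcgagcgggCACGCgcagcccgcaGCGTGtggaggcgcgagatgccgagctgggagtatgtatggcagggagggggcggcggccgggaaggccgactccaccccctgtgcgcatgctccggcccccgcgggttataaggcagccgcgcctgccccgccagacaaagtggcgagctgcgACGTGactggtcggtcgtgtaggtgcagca
Pdk3 (chrX:93832101-93832400, minus strand): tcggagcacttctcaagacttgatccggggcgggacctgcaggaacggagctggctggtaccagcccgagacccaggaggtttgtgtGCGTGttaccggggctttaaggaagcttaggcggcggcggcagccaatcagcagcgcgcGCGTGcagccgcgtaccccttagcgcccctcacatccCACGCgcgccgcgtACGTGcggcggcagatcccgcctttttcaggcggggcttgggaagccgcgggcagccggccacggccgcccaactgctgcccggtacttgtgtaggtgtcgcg
Ldha held the full palindrome CACGTG at 2 positions in this window, and Gpi1, Tpi1 and Eno2 held no match in theirs.

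Levels of the members were compared with each other only in TPM, which takes length into account. Counts and TPM were not linked by 1 fixed length per gene. In WT NT cells Gapdh and Aldoa had 67409 and 43722 counts and 3378 and 1953 TPM. In WT IL-4 cells they had 46814 and 40306 counts and 2862 and 1686 TPM. Gapdh, the dehydrogenase of the middle of the pathway, had the highest level of the members in all 6 BMDM libraries, from 2862 TPM in WT IL-4 to 5506 TPM in WT LPS. Aldoa, Pkm, Ldha and Eno1, the main aldolase, pyruvate kinase, lactate dehydrogenase and enolase genes, filled the next 4 places in every library. Ldha came after Gapdh, Aldoa and Pkm in both NT libraries, at 1330.1 TPM in WT and 1449.8 TPM in cKO, and next to Gapdh in both LPS libraries, at 2971 and 2970.5 TPM. At the other end, Adm, which encodes the vasodilator peptide adrenomedullin, was the lowest member in the NT and IL-4 libraries, at 0 to 0.19 TPM. Together the 34 genes held 1.41% of the counts in WT NT cells and 1.94% in cKO NT cells, 2.75% and 2.61% with LPS and 1.02% and 1.11% with IL-4.

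**Figure D1:**
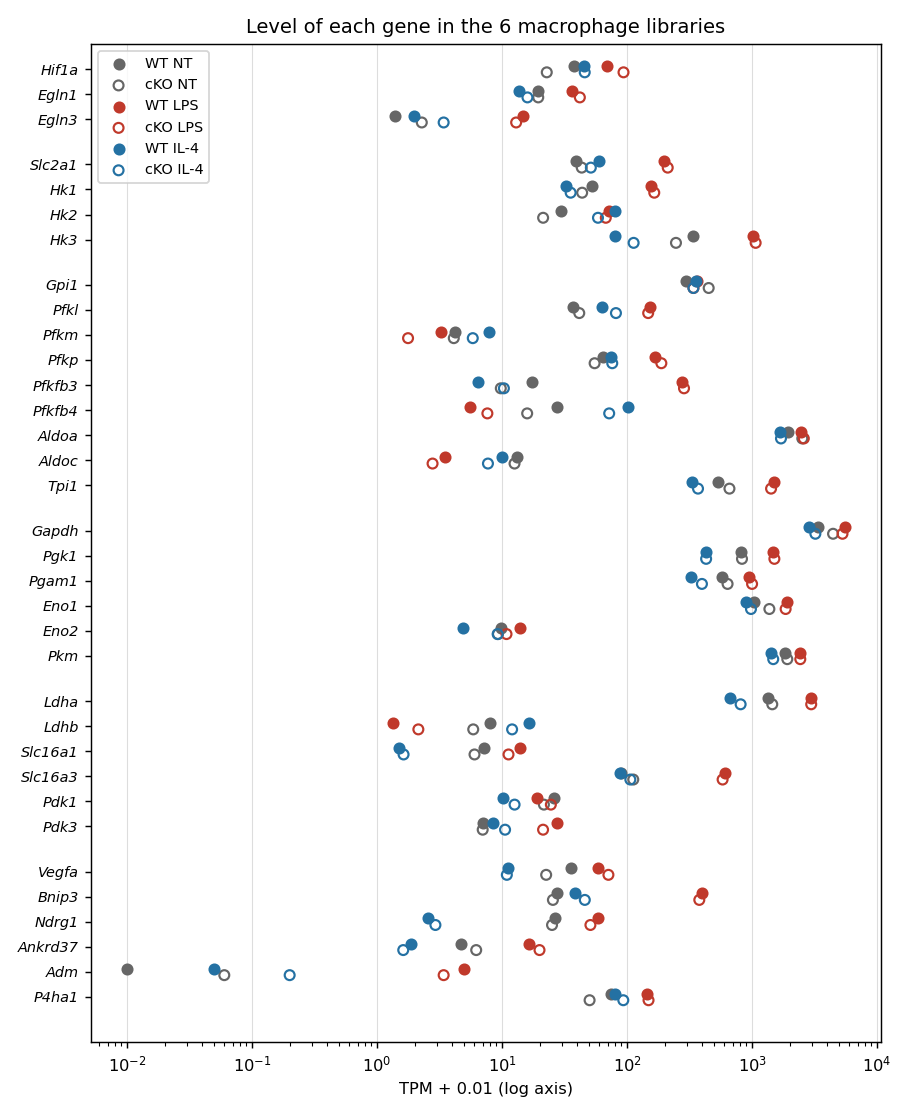
Level of each of the 34 genes in the 6 BMDM libraries in TPM with 0.01 added, on a log axis; filled points are WT, open points cKO, grey NT, red LPS and blue IL-4, with 1 library each and no error bar. Gapdh lies farthest right in each library, Pfkfb3 and Bnip3 move far to the right with LPS, and Adm, with 0 TPM in WT NT, is drawn at the left edge.

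After LPS most of these genes were higher, while most genes of the transcriptome were lower. In WT BMDMs, 28 of the 34 were called higher after LPS (82.4%) and 4 lower, against 20.7% higher and 61.3% lower among the 12813 genes tested. A gene was called when its CPM + 1 differed by a fold of at least 1.2 and the two-sided exact binomial test of its counts in the 2 libraries gave an adjusted p (Benjamini-Hochberg, over all genes whose mean count reached 10) below 0.05. At a fold of at least 2, 17 members were higher and 3 lower, where 10.5% and 32.8% of all genes were. The median log2 difference was 1.01 over the members and -0.58 over all genes tested. In cKO BMDMs 23 of 34 were called higher (67.6%) and 6 lower, against 23.9% and 59.0% of 12666 genes, and at a fold of 2 the members counted 16 and 4 against 13.2% and 32.8%. Scaling by the median ratio in place of the totals moved the log2 CPM ratio up by 0.61 in WT and 0.57 in cKO, and the log2 difference of CPM + 1 by less for genes at low CPM, and it moved the WT split of all calls from 2653 higher and 7857 lower to 4478 and 5158. In cKO that split went from 3025 higher and 7473 lower to 4705 and 5131. Under that scaling 31 members were higher and 3 lower in WT, and 29 and 4 in cKO. With the edgeR exact test at an assumed biological coefficient of variation of 0.2, 24 of the 32 WT calls and 20 of the 29 cKO calls were kept.

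Of the regulators, Hif1a itself had 116 CPM in WT and 84.3 CPM in cKO NT cells, 225 and 285 CPM with LPS, and 135 and 145 CPM with IL-4. It rose with LPS by a log2 difference of 0.95 (95% exact counting limits 0.89 to 1.02) in WT and 1.74 (1.67 to 1.82) in cKO. The LPS libraries were thus the highest of the 6 for Hif1a, and the cKO NT library the lowest. Egln3, a hydroxylase that is itself a HIF target, went from 62 counts in WT and 106 in cKO NT cells to 661 and 520 with LPS and stood at 94 and 154 with IL-4. Its log2 rise with LPS was 3.03 (2.75 to 3.31) in WT and 2.03 (1.77 to 2.29) in cKO. Egln1, the more abundant of this pair of hydroxylases by TPM in all 6 libraries, also rose with LPS, by 0.96 in WT and 0.84 in cKO, and fell with IL-4 by 0.50 and 0.53 on the log2 scale.

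All 4 genes of glucose uptake and phosphorylation were called higher with LPS in both genotypes, against 20.7% of all genes in WT and 23.9% in cKO. Slc2a1, the glucose transporter GLUT1, had 82.3 CPM in WT and 112 CPM in cKO NT cells, 447 and 449 CPM with LPS and 125 and 109.9 CPM with IL-4. Its LPS rise was 2.43 (2.36 to 2.49) in WT and 2.0 (1.93 to 2.06) in cKO on the log2 scale. The hexokinases, which trap glucose as glucose 6-phosphate, all rose with LPS. Hk3 went from 653 CPM in WT and 575 CPM in cKO NT cells to 2063 and 2049 CPM with LPS, and was at 151 and 216 CPM with IL-4. Hk1 went from 146 and 144 CPM to 447 and 439 CPM with LPS and was at 89.1 and 96.9 CPM with IL-4. Hk2 behaved otherwise, since it was high after both treatments: 79.0 and 49.8 CPM in NT cells, 186 and 209 CPM with LPS and 241 and 179.8 CPM with IL-4. With LPS the log2 rises were 1.66 for Hk3, 1.61 for Hk1 and 1.22 for Hk2 in WT, and 1.83, 1.60 and 2.05 in cKO.

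In the upper part of the pathway Pfkfb3 and Pfkfb4, which regulate its flux, moved in opposite directions. Pfkfb3 makes fructose 2,6-bisphosphate, the activator of phosphofructokinase, and it had 52.7 CPM in WT and 37.6 CPM in cKO NT cells, 891 and 847 CPM with LPS and 19.7 and 29.0 CPM with IL-4. Its 16.6-fold rise with LPS in WT (log2 4.05, 3.98 to 4.13) was the largest of the 34 genes there on the scale of CPM + 1, as was its log2 rise of 4.46 (4.36 to 4.56) in cKO. The ratio of Adm, given further on, was higher in WT, on 0 counts in the NT library. In cKO, on 1 count in the NT library, the limits of the Adm ratio (10.7 to 2476) took in the 22.0-fold of Pfkfb3, so their order is not settled there. The 1 added to the CPM makes the log2 difference of Adm smaller. Pfkfb4, which encodes a related bifunctional enzyme, ran the other way, with 39.4 and 34.3 CPM in NT cells, 11.7 and 14.9 CPM with LPS and 158 and 116 CPM with IL-4. It fell with LPS by 1.67 in WT and 1.15 in cKO, and rose with IL-4 by 1.98 in WT (1.88 to 2.07) and 1.73 in cKO (1.61 to 1.84). For both genes the LPS and IL-4 libraries lay on opposite sides of the NT library in each genotype by CPM, but by TPM Pfkfb3 in cKO had 9.76 in NT and 10.3 with IL-4.

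Of the phosphofructokinases, which carry out the committed step, Pfkl rose with LPS from 86.5 to 387 CPM in WT and from 124 to 354 CPM in cKO. Pfkp rose from 161 to 415 CPM and from 163 to 452 CPM. The scarce muscle form Pfkm had 205 and 209 counts in NT cells, 159 and 77 with LPS and 415 and 288 with IL-4, and its fall with LPS was called in cKO (log2 -1.26) but not in WT (-0.26), where median-ratio scaling gave 0.28. Triose phosphate isomerase, Tpi1, rose from 515 to 1494 CPM in WT and from 756 to 1342 CPM in cKO. Aldoa stood at 1668 and 2593 CPM in NT cells, 2165 and 2146 CPM with LPS and 1419.9 and 1469 CPM with IL-4, so the 2 LPS libraries were alike and the NT libraries were not. Gpi1, glucose 6-phosphate isomerase, showed the same arrangement, with 484 and 735 CPM in NT cells, 578 and 554 CPM with LPS and 545 and 556 CPM with IL-4. The directions of Aldoa and Gpi1 with LPS in cKO (log2 -0.27 and -0.41) turned positive when libraries were scaled by median ratio (0.30 and 0.17). Aldoc, the minor aldolase, fell with LPS in both genotypes, from 535 to 132 counts and from 450 to 82 counts.

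The lower part of the pathway runs from glyceraldehyde 3-phosphate to pyruvate. With LPS 6 of its 6 genes were called higher in WT and 2 of 6 in cKO. Of all genes 20.7% were called higher in WT and 23.9% in cKO, and the cKO count of 2 lay near that share. Under median-ratio scaling 6 of 6 were higher in cKO as well, where 4705 of 12666 genes were. At the assumed variation of 0.2 the edgeR exact test kept Eno1 alone of these calls in WT and none in cKO. Gapdh had 2572 CPM in WT and 4232 CPM in cKO NT cells, 4260.4 and 3819 CPM with LPS and 1649 and 1856 CPM with IL-4. Eno1 had 1301 and 2079 CPM in NT cells, 2509 and 2323 CPM with LPS and 1109 and 1239 CPM with IL-4. Pkm had 2757 and 3457 CPM in NT cells, 3761 and 3559 CPM with LPS and 2069.6 and 2194 CPM with IL-4. By CPM the genotypes were farthest apart untreated in these 3 genes, and by TPM in Gapdh and Eno1 but not in Pkm. Their log2 LPS responses were 0.73, 0.95 and 0.45 in WT and -0.15, 0.16 and 0.04 in cKO, and median-ratio scaling gave 0.43, 0.73 and 0.62 in cKO, each then called. Pgk1 and Pgam1, phosphoglycerate kinase and mutase, were called higher in both genotypes, by 0.91 and 0.79 in WT and 0.59 and 0.38 in cKO. Copies of Pgam1 elsewhere in the genome held counts worth up to 4.15% of those of Pgam1, and 11 members had fractional counts in at least 1 library, so the values of genes with near-identical copies are uncertain to that extent. The neuronal enolase Eno2, at 5.99 to 17.3 CPM, rose with LPS in WT by 0.39 and had -0.06 in cKO, which median-ratio scaling turned to 0.48.

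At the end of the pathway Ldha, which makes lactate, rose with LPS from 1262 to 2955 CPM in WT and from 1646 to 2790.4 CPM in cKO, and with IL-4 it was at 617 and 763 CPM. Its sister gene Ldhb had 157 and 115 counts in NT cells, 26 and 37 with LPS and 341 and 228 with IL-4, the opposite order. Ldhb fell with LPS by a log2 difference of 1.77 in WT and 1.24 in cKO and rose with IL-4 by 0.90 and 0.68. The lactate exporter Slc16a3 (MCT4) rose with LPS from 102 to 712 CPM in WT and from 158 to 624 CPM in cKO, log2 2.79 (2.73 to 2.85) and 1.98 (1.92 to 2.03). The bidirectional carrier Slc16a1 (MCT1) had 21.5 and 21.6 CPM in NT cells, 43.7 and 33.5 CPM with LPS and 4.44 and 4.90 CPM with IL-4. Of the kinases that inhibit pyruvate dehydrogenase in mitochondria, Pdk3 rose with LPS from 9.42 to 38.3 CPM in WT and from 11.2 to 28.1 CPM in cKO. Pdk1 had 83.0 and 86.0 CPM in NT cells, 68.8 and 74.7 CPM with LPS and 27.8 and 31.5 CPM with IL-4, and its small WT fall with LPS (-0.27) turned to 0.33 under median-ratio scaling.

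All 6 of the other HIF-1 targets were called higher with LPS in both genotypes, against 20.7% of all genes in WT and 23.9% in cKO. At the assumed variation of 0.2 the edgeR exact test did not keep Vegfa in WT or Ndrg1 in cKO. Bnip3 went from 557 and 601 counts in NT cells to 8783 and 6860 with LPS, and had 855 and 870 with IL-4. Its log2 LPS rise of 3.99 (3.87 to 4.11) in WT came next to that of Pfkfb3 on the scale of CPM + 1, and in cKO it was 3.41 (3.30 to 3.53). Ndrg1, a stress-response gene, had 1203 and 1267 counts in NT cells, 2893 and 2230 after LPS and only 127 and 145 after IL-4. Vegfa, the angiogenic growth factor, had 1534 and 980 counts in NT cells, 2401 and 2535 with LPS and 360 and 318 with IL-4. P4ha1, a collagen prolyl hydroxylase subunit, went from 149 and 119 CPM to 304 and 295 CPM with LPS and was at 159 and 191 CPM with IL-4. Adm had 0 counts in WT NT cells, against a floor of 3 counts, and 105 after LPS, which is at least 36.8-fold higher than that floor (the lower exact counting limit of the ratio was 29.4), and in cKO it went from 1 to 64 counts, a ratio of 61.7 with exact counting limits of 10.7 to 2476. Ankrd37 had 58 and 65 counts in NT cells, 202 and 194 with LPS and 24 and 20 with IL-4.

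**Figure D2:**
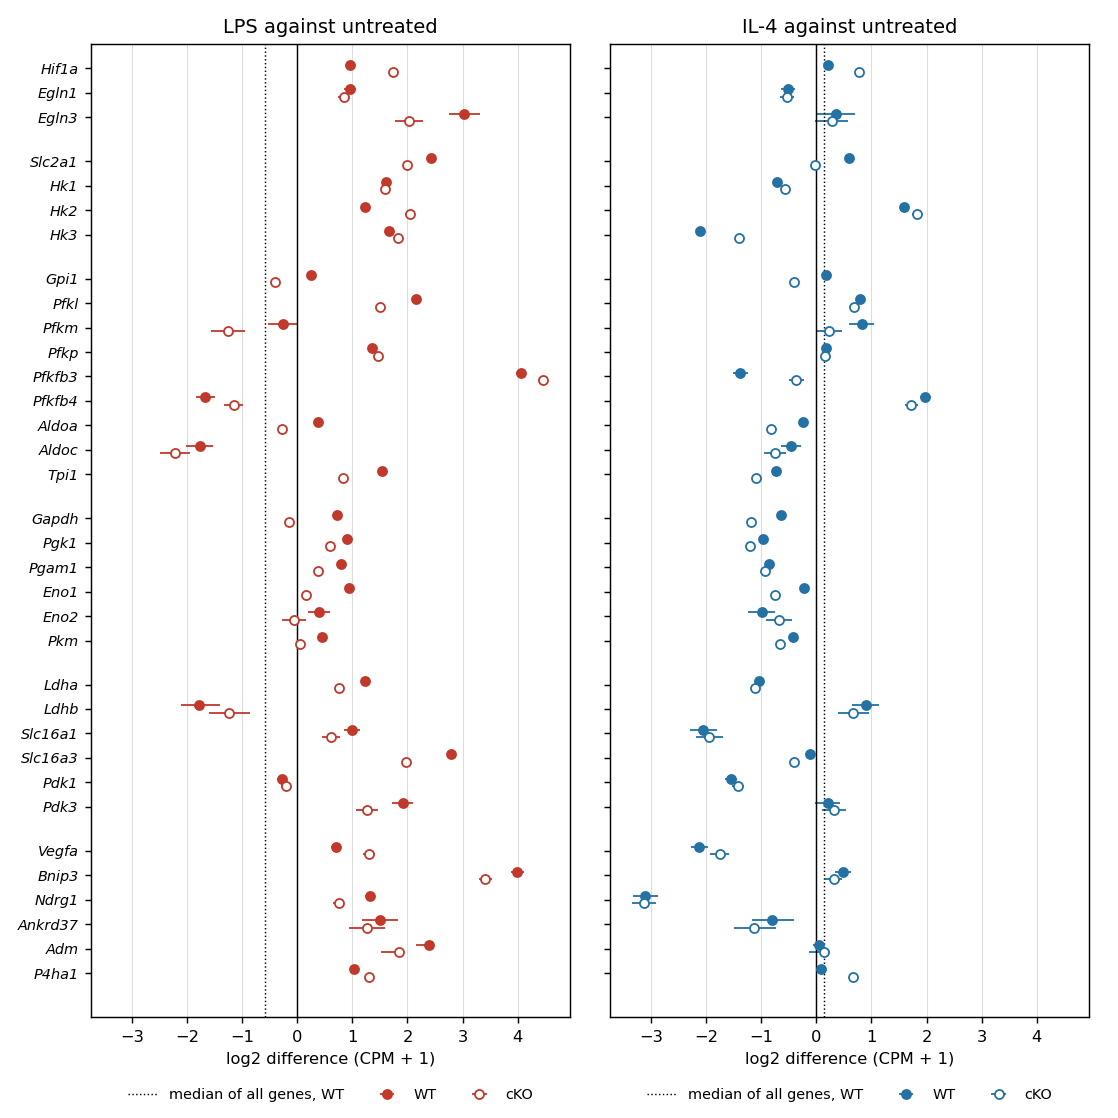
Log2 difference of CPM + 1 for LPS (left, red) and IL-4 (right, blue) against untreated BMDMs, with WT filled and cKO open; bars are 95% exact counting limits for 1 library against 1 and the dotted line is the median of all genes tested in WT (-0.58 and 0.15). Most genes lie right of 0 with LPS and left of 0 with IL-4, while Pfkfb4 and Ldhb lie on the other side in each panel. Adm had at most 4 counts in the NT and IL-4 libraries, and its points in the IL-4 panel carry no fold.

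With IL-4 more members were lower than higher, while over all genes more were higher. In WT, 7 of the 33 members tested were called higher and 17 lower, against 38.8% higher and 21.8% lower of 13090 genes, and at a fold of 2 the members counted 2 and 7 against 10.0% and 6.19%. In cKO, 8 were higher and 21 lower, against 42.4% and 24.9% of 12966 genes, and at a fold of 2 there were 2 and 10 against 15.0% and 6.09%. Each IL-4 comparison shares its untreated library with the LPS comparison of that genotype. Median-ratio scaling moved the split of all calls from 5082 higher and 2852 lower to 3806 and 3878 in WT and from 5492 and 3230 to 4405 and 4359 in cKO, and the members' to 7 and 20 and to 6 and 21. The median log2 difference over the members was -0.41 in WT and -0.57 in cKO, and over all genes 0.15 and 0.17. With the edgeR exact test at an assumed variation of 0.2, 8 of 24 WT calls and 12 of 29 cKO calls were kept, among them Hk2, Hk3, Pfkfb4, Slc16a1, Pdk1, Vegfa and Ndrg1 in both genotypes. The deposited TPM, by fold alone, gave 11 members higher and 18 lower in cKO, where all genes counted 7160 higher and 2187 lower of 12966. The neutrophil markers named above stood higher in the IL-4 libraries than in the others, and their part in these differences was not tested.

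The largest IL-4 difference among the members was that of Ndrg1, with a log2 difference of -3.10 (-3.32 to -2.88) in WT and -3.12 (-3.34 to -2.91) in cKO. Vegfa also fell (-2.12 and -1.75), as did Hk3 (-2.11 and -1.41) and Slc16a1 (-2.05 and -1.94). Ldha (-1.03 in WT and -1.11 in cKO) and Pgk1 (-0.96 and -1.21) fell too. Of the 6 lower-glycolysis genes, 5 were called lower in WT and 6 in cKO, against 21.8% and 24.9% of all genes. At the assumed variation of 0.2 the edgeR exact test kept none of these 5 nor Ldha in WT, and Gapdh, Pgk1 and Ldha in cKO. By TPM the log2 differences of Gapdh in WT (-0.24) and Eno2 in cKO (-0.0070) no longer passed the fold. On the other side Pfkfb4, Hk2, Pfkl, Ldhb and Bnip3 were called higher in both genotypes. Hk2 rose by 1.59 in WT (1.52 to 1.67) and 1.83 in cKO (1.74 to 1.93), and Pfkl by 0.80 and 0.68. Hif1a was called higher with IL-4 in cKO (0.78, 0.70 to 0.86) and not in WT (0.22), and that difference was not tested. The IL-4 rise of Bnip3, 0.48 in WT and 0.31 in cKO, was the weakest of these, and the cKO value dropped to 0.12 under median-ratio scaling.

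Within gene families the share of each gene differed between the treatments. Pfkfb4 made up 61.2% of the summed Pfkfb3 and Pfkfb4 TPM in WT NT cells, 1.96% after LPS and 94.1% after IL-4, and in cKO cells 61.9%, 2.60% and 87.4%. Hk3 made up 80.3% of the summed Hk1, Hk2 and Hk3 TPM in WT NT, 81.8% in WT LPS and 41.4% in WT IL-4 cells, where Hk2 reached 41.7%. In cKO cells the Hk3 share was 79.1%, 82.1% and 54.6%, and the Hk2 share after IL-4 was 28.3%. Pdk3 held 21.4% of the Pdk1 and Pdk3 TPM in WT NT and 59.0% in WT LPS cells, and in cKO cells 24.4% and 46.4%. In contrast the lowest share in any library was 99.3% for Aldoa of the sum with Aldoc and 99.1% for Eno1 of the sum with Eno2, and the highest for Ldhb of the sum with Ldha was 2.42%, with other genes of these families not in the sums.

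**Figure D3:**
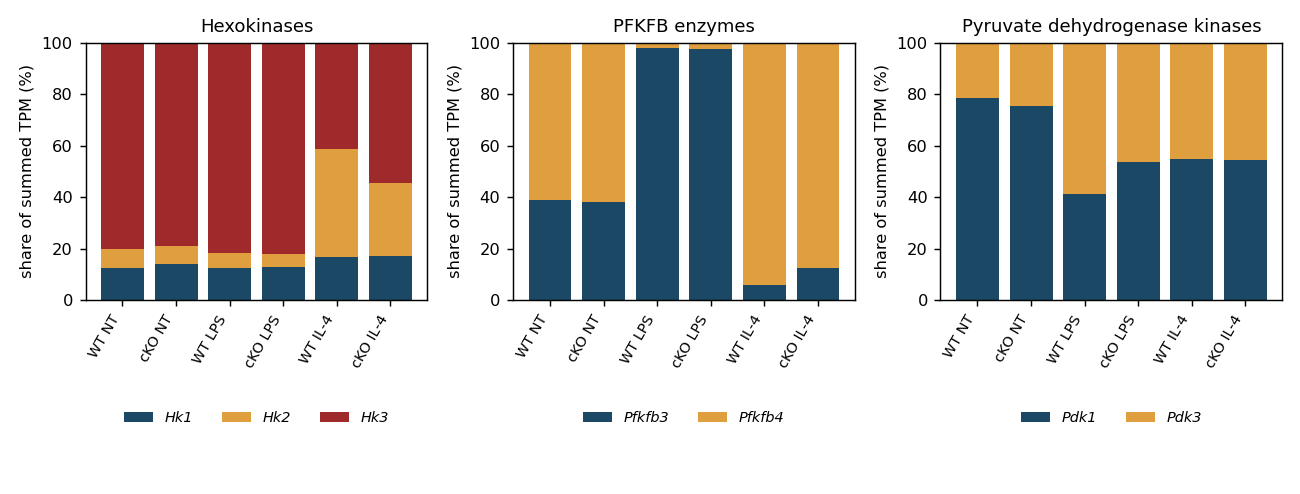
Share of the summed TPM, in percent, held by each hexokinase (left), each PFKFB gene (middle) and Pdk1 and Pdk3 (right) in the 6 BMDM libraries, 1 library a bar. The PFKFB bars switch from mostly Pfkfb4 in NT and IL-4 cells to mostly Pfkfb3 after LPS, and the Hk2 part is widest after IL-4.

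Between cKO and WT cells without treatment, 15 of 33 members tested were called higher in cKO than in WT and 5 lower, against 21.9% higher and 26.1% lower of 12463 genes. After LPS, 2 of 34 were higher and 8 lower, against 17.3% and 8.90% of 12386 genes. With IL-4 in both genotypes, 9 of 33 stood higher in cKO and 5 lower, against 14.0% and 10.6% of 13245 genes. By role, the NT calls higher in cKO were 5 of 6 lower-glycolysis genes, 4 of 9 upper-glycolysis genes, 2 of 6 lactate and pyruvate genes, 1 of 4 genes of uptake and phosphorylation, 1 of 3 regulators (Egln3) and 2 of the 5 other HIF-1 targets tested (Bnip3 and Ndrg1), and Hk2 and Pfkfb3 were among the 5 called lower. None of the members reached a fold of 2 in these 3 comparisons, and the edgeR exact test at an assumed variation of 0.2 called 0 of the 20, 10 and 14. Its lowest adjusted p among the members was 0.47 in NT cells, 1.0 after LPS and 0.99 after IL-4. The deposited TPM by fold alone gave 8 members higher and 8 lower in NT cells in place of 15 and 5, where all genes counted 1552 higher and 5491 lower of 12463. After LPS it gave 5 and 5 in place of 2 and 8, against 3475 and 1300 of 12386 genes, and after IL-4 10 and 5, against 2254 and 2080 of 13245.

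In NT cells Gapdh (log2 0.72, 0.70 to 0.73), Eno1 (0.68), Aldoa (0.64), Gpi1 (0.60), Tpi1 (0.55), Pfkl (0.51), Pgam1 (0.40), Ldha (0.38), Pkm (0.33) and Pgk1 (0.28) were called higher in cKO, as were Slc16a3 (0.63), Slc2a1 (0.44), Egln3 (0.76), Bnip3 and Ndrg1. By deposited TPM, Gapdh went from 3378 to 4442, Eno1 from 1030.5 to 1375 and Aldoa from 1953 to 2520.2, still above a fold of 1.2, while Pkm (1847 to 1912), Pgk1 (819 to 830.1), Pfkl, Pgam1, Ldha and Slc2a1 lay below it. On that scale the log2 differences of Pfkl, Pgam1, Ldha and Slc2a1 were 0.17, 0.14, 0.12 and 0.16, and those of Bnip3 and Ndrg1 turned to -0.11 and -0.067. Lower in cKO were Hk2 (-0.66, limits -0.76 to -0.55), Pfkfb3 (-0.48), Hif1a (-0.45), Vegfa (-0.42) and P4ha1 (-0.32). The interferon-response genes, as given above, were also lower in the cKO NT library, and the part of that in these values was not tested.

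After LPS 24 of the 34 members were not called between the genotypes. Most genes were not called either, with 17.3% of 12386 genes higher in cKO and 8.90% lower. Hif1a (0.34, 0.29 to 0.39) and Pfkfb4 (0.32, 0.10 to 0.53) were called higher in cKO. Pfkm (-0.78), Aldoc (-0.49), Adm (-0.48), Pdk3 (-0.43), Slc16a1 (-0.37), Eno2 (-0.30), Ndrg1 (-0.28) and Bnip3 (-0.27) were called lower, and Pfkm and Adm rested on 77 and 64 counts in the cKO library. By TPM Aldoc (-0.25), Ndrg1 (-0.20) and Bnip3 (-0.079) no longer passed the fold, and Ldhb (0.43), Pdk1 (0.35) and Vegfa (0.26) passed it as higher. Pfkfb3, Hk3, Slc2a1, Gapdh and Ldha had log2 differences of -0.07, -0.01, 0.01, -0.16 and -0.08. After IL-4, Egln3 (0.68), Pfkfb3 (0.54), Hk3 (0.52), Eno2 (0.47), Pfkl (0.40), Pdk3 (0.33), Pgam1 (0.32), Slc16a3 (0.32) and Ldha (0.31) were called higher in cKO, and Pfkfb4 (-0.45), Hk2 (-0.42), Ldhb (-0.42), Pfkm (-0.38) and Aldoc (-0.33) lower. Hk3 had 4278 counts in WT and 5649 in cKO IL-4 cells and Pfkfb3 had 559 and 759, and the difference between their IL-4 responses in the 2 genotypes (0.70 and 1.02) was not tested. LPS-induced genes Tnf, Cxcl10, Nos2 and Il6 summed to 62.4 CPM in WT and 236 CPM in cKO IL-4 cells and the interferon-response genes to 531 and 1408 CPM, and their part in these values was not tested.

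**Figure D4:**
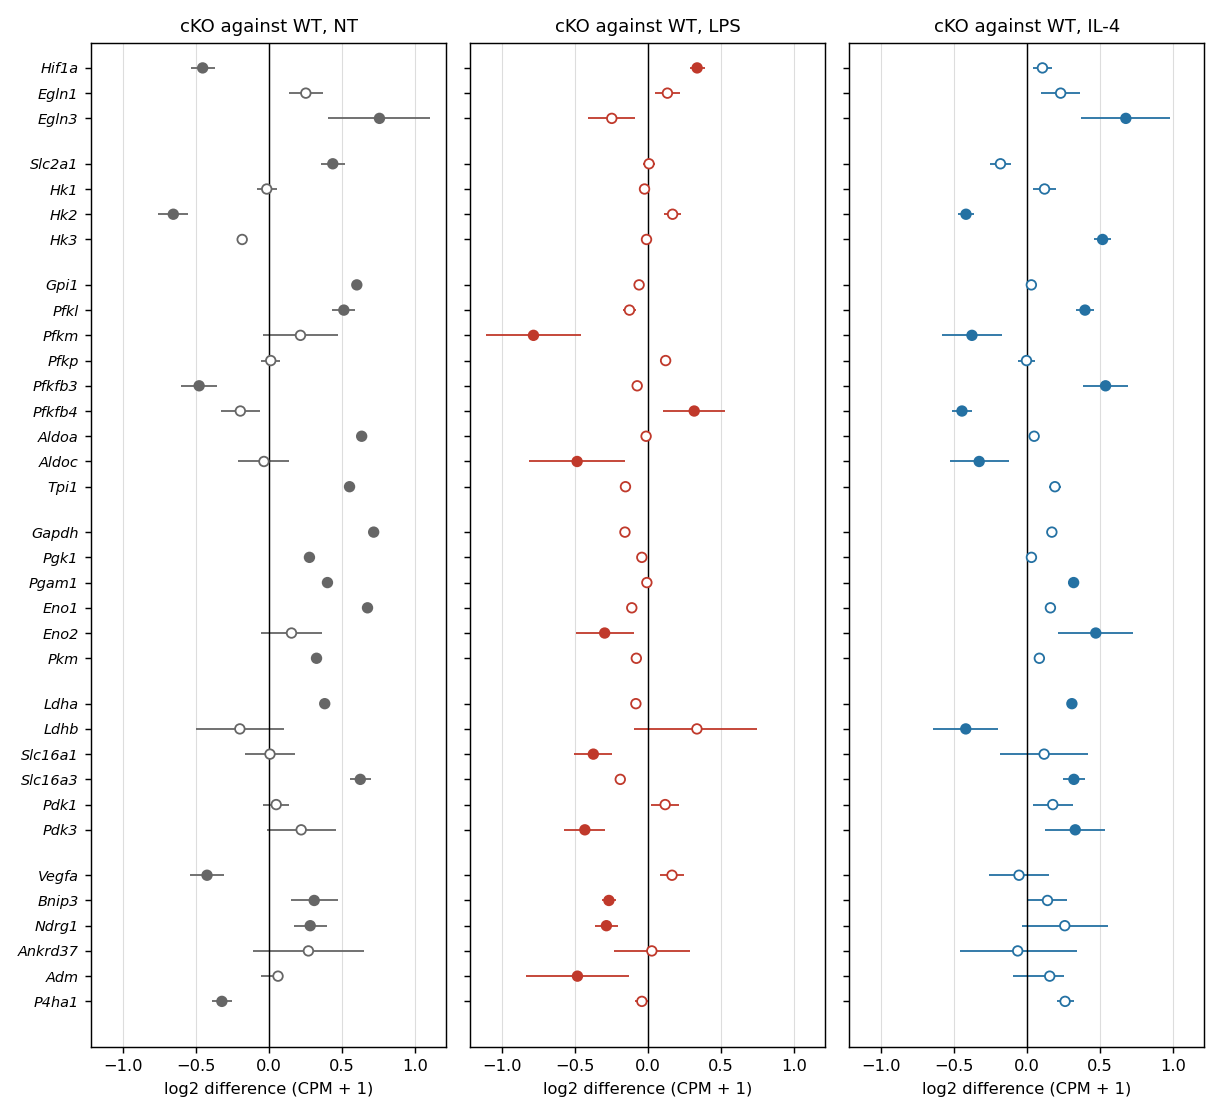
Log2 difference of CPM + 1 between cKO and WT BMDMs for each gene in NT, LPS and IL-4 cells; bars are 95% exact counting limits, filled points were called by the exact binomial test with a fold of at least 1.2, and open points were not. Most filled points lie right of 0 in NT cells, and most of the few filled points after LPS lie left of it.

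Neighbouring genes were counted on lists chosen by function, with earlier results of these data known. Of 16 other glycolysis and pyruvate genes tested in WT with LPS, 1 was called higher, the lysosomal sugar transporter Slc2a6 (313 counts in NT, 16564 after LPS, log2 5.69), and 11 lower, down to Slc2a3 at -2.48, where 20.7% of all genes were higher and 61.3% lower. In cKO with LPS the same transporter (5.24) was the only 1 of 15 called higher and 11 were lower, down to Slc2a8 at -2.31, against 23.9% and 59.0% of all genes. Slc2a6 was also the highest with IL-4, at 4.16 in WT and 4.23 in cKO, where 5 of 15 were higher and 4 lower in each, against 38.8% and 21.8% of all genes in WT and 42.4% and 24.9% in cKO. The pentose phosphate pathway, which draws on glucose 6-phosphate for NADPH, had 0 of 7 genes called higher and 5 lower in WT with LPS (Pgls, 2368 to 521 counts, -2.06), and 1 and 5 in cKO, where 61.3% and 59.0% of all genes were lower. With IL-4, 4 of 7 in WT and 5 of 7 in cKO were lower, against those 21.8% and 24.9%, down to Taldo1 at -0.51 and -1.26.

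Of 26 further HIF-1 targets tested, 19 were called higher with LPS in WT and 6 lower, down to the transferrin receptor Tfrc (6288 to 165 counts, -4.98), and 16 and 6 in cKO, against 20.7% and 61.3% of all genes in WT and 23.9% and 59.0% in cKO. With IL-4 the counts were 5 higher and 12 lower of 25 in WT and 9 and 11 in cKO, from the chemokine receptor Cxcr4 (3.12 and 3.14) to P4ha2 (-2.09 and -2.26), against 38.8% and 21.8% of all genes in WT and 42.4% and 24.9% in cKO. Of 8 other HIF regulators tested, 2 were higher and 4 lower in WT with LPS, against the 20.7% and 61.3% of all genes, and 4 higher and 2 lower in cKO, against 23.9% and 59.0%. Epas1, which encodes HIF-2α, was the lowest in WT, at 254 counts in NT and 17 after LPS (-2.67). With IL-4, 6 of these 8 were higher in WT, led by Vhl (526 to 2850 counts, 2.27), and Epas1 was the 1 called lower (-1.80), against 38.8% and 21.8% of all genes. In cKO with IL-4, 7 of 8 were higher and Epas1 was again the 1 called lower (-1.82), against 42.4% and 24.9%. Between genotypes in NT cells, 5 of 15 other glycolysis and pyruvate genes were higher and 3 lower, 3 of 7 pentose phosphate genes higher and 1 lower, 4 of 25 further targets higher and 3 lower, and 0 of 8 regulators higher and 4 lower in cKO, where 21.9% of all genes were higher and 26.1% lower.

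The Raw264.7 libraries were read with more caution, because the 3 of the Zmynd8 lines stood apart from the 3 of the p65 lines in markers of other cell types. The neutrophil markers summed to 10423 CPM in the library labelled WT Zmynd8, 6995 CPM in Zmynd8 KO and 4439 CPM in D/E-A, but to at most 0.319 CPM in the 3 p65 lines. Lymphocyte markers summed to 80.5 to 112 CPM in the Zmynd8 libraries and to at most 0.255 CPM in the p65 libraries. Xist, which is made from an inactive X chromosome, had deposited values of 6817 to 8829 in the Zmynd8 libraries and 0 to 3.05 in the p65 libraries, whereas Raw264.7 cells were derived from a male mouse. The ribosomal gene Rn18s-rs5 took 6.50% to 13.8% of the reads in the former and 0.179% to 0.509% in the latter. All 9 macrophage markers had reads in all 6 libraries, but 1 was at or below 3 reads in K122R and 1 in p65 KO. They summed to 5239 to 10082 CPM in the Zmynd8 libraries and to 2361 to 2674 CPM in the p65 libraries. The targeted genes had a Zmynd8 value of 506 in WT Zmynd8 and 116 in Zmynd8 KO, the 1 value of that column that was no whole number of reads, and a Rela value of 1574 in WT p65 and 778 in p65 KO, while K122R, where Rela was 5963, stood above WT p65. The deposited values are reads divided by 1 factor per library, and there was 1 library per line. Differences are therefore given as log2 of the value + 1 within a table, and the exact binomial test on recovered reads compares 2 libraries, not the lines.

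Between the libraries labelled D/E-A and WT Zmynd8, 13 of 32 listed members were higher in D/E-A by a fold of at least 1.2 and 11 lower, against 36.7% and 35.9% of 12771 genes, so the members' shares lay near those of the table. All 4 genes of uptake and phosphorylation were higher, Hk3 with 5600.2 in WT Zmynd8 and 10904 in D/E-A and Slc2a1 with 1837 and 2567. Pfkfb3 was the highest of the members by difference, with 9166 and 21691 (log2 1.24), and Hif1a had 4593 and 6891 (0.59). Of the 8 upper-glycolysis genes listed, Pfkfb3, Pfkm (0.59) and Pfkp (0.56) were higher and Pfkl (-0.77), Tpi1 (-0.73), Gpi1 (-0.45) and Aldoa (-0.40) lower. With recovered reads and the exact binomial test 12 members were higher and 10 lower, where all genes counted 3963 and 3865. Those 22 were without Pfkm, at 49 and 71 reads (0.43, adjusted p = 0.053), and without Egln3 (-0.36, adjusted p = 0.057). Of the 6 lower-glycolysis genes, Eno2 had 404 and 159.7 (-1.33), Eno1 11262 and 7783 (-0.53) and Pkm 23872 and 16939.5 (-0.49), while Pgam1 was higher with 1638 and 2504 (0.61), and Gapdh (-0.02) and Pgk1 (-0.04) passed in neither direction. Slc16a1 was higher and Slc16a3 lower, at 0.80 and -0.48. The neutrophil markers were lower in D/E-A (4439 against 10453 CPM) and the macrophage markers higher (10082 against 5254 CPM). Also higher in D/E-A were the LPS-induced genes Tnf, Cxcl10, Nos2 and Il6 (7005 against 3590 CPM) and the interferon-response genes (26281 against 19008 CPM). The part of these differences in the values was not tested. In this table the lowest value in WT Zmynd8 was 20.5 while that in D/E-A was 0, and Adm and Aldoc were not listed.

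Between the libraries labelled Zmynd8 KO and WT Zmynd8, which share the WT Zmynd8 library with the comparison above, 11 of 34 members were higher and 8 lower, against 33.8% and 36.5% of 21302 genes. With the reads recovered from the values, scaled by their totals and tested by the exact binomial test, 8 were higher and 10 lower, where all genes counted 3185 higher and 3640 lower. Pfkfb3 had 9783 in WT Zmynd8 and 13155 in KO (0.43), and Hk3 had 5977 and 9283 (0.64). Pfkl (-0.63), Tpi1 (-0.52), Eno1 (-0.40), Pkm (-0.41) and Eno2 (-0.96) were lower in KO. Hif1a differed by 0.03, Gapdh by 0.04, Pgk1 by 0.07 and Ldha by -0.06. Aldoc, with 10 and 35 reads, and Adm, with 9 and 14 reads, were close to the lower end of the table. The neutrophil marker sum was lower in KO here too, at 6995 against 10423 CPM. The LPS-induced genes summed to 5494 CPM in KO and 3580 CPM in WT Zmynd8, and the interferon-response genes to 21612 and 18953 CPM. The part of these differences in the values was not tested.

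In the p65 lines, where all libraries had LPS, more members were higher than lower in both comparisons with WT p65. Of the marker lists, 3 of 9 neutrophil, 2 or 3 of 5 lymphocyte and 0 of 4 erythroid genes were listed in these tables, the former 2 lists at the sums near 0 given above, while dendritic cell markers summed to 30.8 to 42.7 CPM and fibroblast markers to 8.41 to 11.97 CPM. Between K122R and WT p65, 19 of 33 members were higher in K122R and 5 lower, against 30.8% and 32.5% of 19670 genes. Between p65 KO and WT p65, 16 of 33 were higher and 2 lower, against 26.3% and 25.7% of 19879 genes. The LPS-induced genes summed to 2112 CPM in WT p65, 2905 CPM in K122R and 1892 CPM in p65 KO. The interferon-response genes summed to 9703, 13632 and 8808 CPM, and the part of these differences in the values was not tested. Both comparisons share the WT p65 library. In each the lower genes included Egln3, which had 3 reads in WT p65 and 0 in the others, at the limit of what 0 counts allow, so no fold is given for it. With recovered reads and the exact binomial test, 12 were higher and 6 lower in K122R, whose deposited scaling lay 0.14 above scaling by totals on the log2 scale, and 15 higher and 1 lower in p65 KO. All genes then counted 1679 higher and 4219 lower in K122R and 1333 and 1338 in p65 KO.

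Among the HIF-1 targets, Ndrg1 had 365 in WT p65 and 1314 in K122R (1.85), and in the separately normalized p65 KO data the values were 366 for WT p65 and 866 for p65 KO (1.24). Bnip3 had 1572 and 2711 (0.79), and 1575 and 2809.6 (0.83). Vegfa had 1406 and 1973 (0.49), and 1409 and 2746 (0.96). In all 3 genes WT p65 was the lowest of the 3 libraries. Adm was lower in K122R (634 against 413, -0.62) and higher in p65 KO (635 against 874, 0.46).

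Of the 6 lower-glycolysis genes, 4 passed as higher in K122R and 2 in p65 KO, and of the 9 upper-glycolysis genes 5 and 4, against the 30.8% and 26.3% of all genes. With recovered reads Pfkl, Aldoa, Tpi1 and Eno1 no longer passed in K122R, which leaves 3 lower-glycolysis and 2 upper-glycolysis genes, and Pfkfb4 no longer passed in p65 KO. Hk1 had 1048 in WT p65 and 2580.0 in K122R (1.30), and Hk3 had 732 and 1903 (1.38), against 0.71 and 0.73 in p65 KO. Eno2 differed by 0.80 and 0.84, Slc2a1 by 0.77 and 0.42, Pfkp by 0.69 and 0.32 and Pgk1 by 0.56 and 0.27. Pfkfb3, which rose with LPS in BMDMs, was lower in both lines, with 4476 in WT p65 and 1578 in K122R (-1.50), and 4486 and 3372 in p65 KO (-0.41). Pfkfb4 differed by 0.79 and 0.43 on values of 112 to 194, and the exact binomial test on recovered reads gave the p65 KO difference an adjusted p of 0.069. Hif1a, at 3519 to 3684, differed by 0.07 and 0.03, Hk2 by -0.09 and 0.05, and Gapdh by 0.25 and 0.20. The K122R line thus had the lowest Pfkfb3 and the highest Hk1, Hk3 and Ndrg1 of these 3 libraries.

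**Figure D5:**
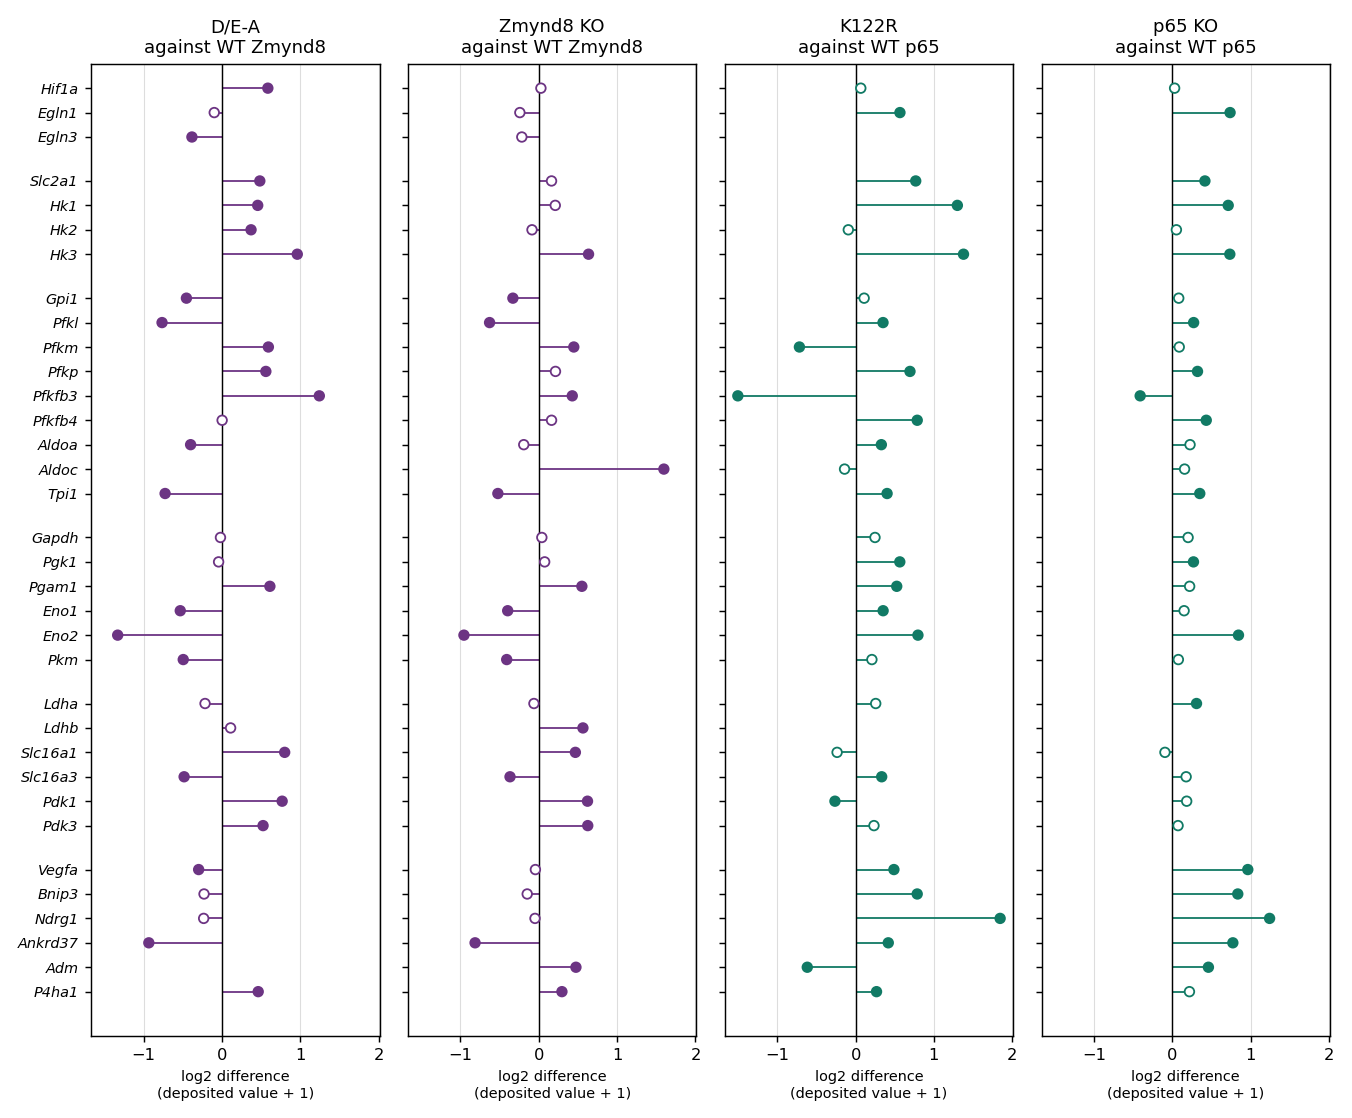
Log2 difference of the deposited value + 1 for each gene in the 4 Raw264.7 comparisons, purple for the Zmynd8 lines and green for the p65 lines; filled points pass a fold of 1.2, 1 library stands on each side and no error can be drawn, and genes not listed or with at most 3 reads in both libraries have no point. Pfkfb3 lies right of 0 for D/E-A (1.24) and left of it for K122R (-1.50), and Ndrg1, Bnip3, Hk1 and Hk3 lie right of 0 in both p65 panels.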

How the data were processed

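RNA of 12 libraries, 1 per group, was analysed. For BMDMs the authors deposited estimated counts and TPM per gene, made from polyadenylated RNA of 3 mixed biological replicates aligned to the mm10 transcriptome with TopHat. The submitters' processing notes name CASAVA 1.4 and Bowtie 0.12.2, and the counter is not given in the sources used here. The authors deposited, for the Raw264.7 lines, a normalized signal per gene, which was whole reads over 1 factor per library: at least 99.996% of the values came out whole within 0.05 of a read. Estimated counts were rounded to whole numbers and scaled by library totals, the log2 fold was taken on CPM + 1, or on the deposited value + 1 in Raw264.7 tables for genes whose mean value reached 1, and 2 libraries were compared with a two-sided exact binomial test (scipy 1.17.1, Benjamini-Hochberg adjustment). Counting limits are exact Clopper-Pearson limits at 95% and cover counting error only, as does the floor of 3 counts. Replicate spread cannot be estimated, so the edgeR 4.0.16 exact test was also run with the biological coefficient of variation set to 0.2. The methods were tested on simulated data.

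The members and gene lists were chosen with earlier results of these data known. All 34 members are named, and of each further list only the called genes with the highest and lowest log2 difference in a comparison, so that not every comparison of those lists is printed. For 1 gene that this rule would name, the result is not reported here. The authors' own fold changes and p-values, and 7 unlabelled numeric side columns, of which 2 hold values per library, were not used. Gene rows without a gene identifier (431, 431 and 2 in the 3 BMDM tables) held 0 counts and were left out.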

Additional observations from a re-analysis of the deposited data

Results flagged for a closer look

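The following members were called in opposite directions under the same contrast in 2 settings by the exact binomial test of 1 library against 1. The differences themselves were not tested, and groups of 1 library allow no outlier test.

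Between cKO and WT, Hif1a had a log2 difference of -0.45 in NT cells and 0.34 after LPS, which differ by 0.79. Bnip3 had 0.31 and -0.27, which differ by -0.58, and Ndrg1 had 0.28 and -0.28, which differ by -0.57. By deposited TPM, the NT values of Bnip3 and Ndrg1 were -0.11 and -0.067 and the LPS values -0.079 and -0.20, so neither gene passed the fold on either side. Pfkfb3 had -0.48 in NT cells and 0.54 after IL-4, a difference of 1.02.

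From LPS to IL-4 cells, the cKO against WT value of Pfkfb4 went from 0.32 to -0.45 (-0.76), that of Eno2 from -0.30 to 0.47 (0.77), and that of Pdk3 from -0.43 to 0.33 (0.76). The LPS response of Aldoa was 0.38 in WT and -0.27 in cKO, a difference of -0.65, and its cKO value was 0.30 with median-ratio scaling.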

How the results depend on the processing

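No paired analysis was possible because each group has 1 library. Leaving out a replicate was not possible for the same reason. The number of members called stayed within 1.5 times under another pseudocount, filter, scaling or the TPM in all 7 BMDM comparisons, and under another pseudocount, filter or the recovered reads in the 4 Raw264.7 comparisons. With the edgeR exact test at an assumed variation of 0.2 it went from 24 to 8 for IL-4 in WT, from 29 to 12 for IL-4 in cKO, and to 0 from 20, 10 and 14 for cKO against WT in NT, LPS and IL-4 cells.

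No single value of the 366 turned sign or crossed the threshold with a pseudocount of 0.1 or without the filter. Called values that turned sign elsewhere were Pdk1 with LPS in WT (-0.27, to 0.33 by median ratio and 0.31 by TMM), Gpi1 with LPS in cKO (-0.41, to 0.17 and 0.15) and Aldoa with LPS in cKO (-0.27, to 0.30 by median ratio, 0.29 by TMM and 0.040 by TPM). By TPM Pfkfb3 with IL-4 in cKO went from -0.36 to 0.074, and Bnip3 and Ndrg1 in NT cKO against WT from 0.31 and 0.28 to -0.11 and -0.067. Values not called at first that turned sign and were then called were Pfkm with LPS in WT (-0.26, to 0.28 by median ratio) and, with LPS in cKO, Gapdh (-0.15, to 0.43 by median ratio and 0.41 by TMM), Eno2 (-0.06, to 0.48 and 0.46) and Pdk1 (-0.20, to 0.37 and 0.35). Some values near 0 turned sign without being called either way. By construction these scalings move the LPS log2 CPM ratios by 0.56 to 0.61, and less at low CPM; for TPM the cause was not tested. Depth limits Adm, Ankrd37, Egln3, Ldhb and Pfkm most, and counts of 1 library a group cannot show whether a difference exceeds the spread between animals.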
